A study of Mus musculus with 26 samples.

Results

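Fatty acid uptake and triglyceride synthesis in visceral fat were described through 10 genes: Lpl, Cd36, Slc27a1, Fabp4, Fabp5, Gpam, Agpat2, Lpin1, Dgat1 and Dgat2. They were taken by gene symbol from the deposited count tables of adipocytes and of stromal vascular cells (SVCs), and all 10 were found in both tables among 39017 genes. The genes were chosen by name and not by a cutoff on their measured values, but with earlier results of these data known.

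An adipocyte fills its lipid droplet mainly from fatty acids that arrive in lipoproteins. Lipoprotein lipase frees them from the particle in the capillary, membrane proteins take them up, and fatty acid binding proteins carry them through the cytosol. They are then joined to glycerol 3-phosphate one at a time, by a glycerol phosphate acyltransferase, an acylglycerol phosphate acyltransferase, a phosphatidic acid phosphatase and a diacylglycerol acyltransferase in turn. In obesity the fat pad also fills with macrophages, which take up and store lipid too and use several of the same proteins.

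The study asked which changes of obesity persist in fat after weight loss. Male C57BL/6J mice with no engineered allele were put on a purified diet at 9 to 10 weeks of age. Lean mice ate a low fat diet (LFD, 10% fat) for 12 weeks, obese mice a high fat diet (HFD, 60% fat) for 12 weeks, and formerly obese mice (SW) the HFD for 9 weeks and then the LFD for 3 weeks. Epididymal fat pads were digested with collagenase, and the floating adipocytes and the pelleted SVCs were sequenced as poly(A) RNA. The titles of the SW libraries name only the low fat diet, and their treatment label gives the switch, which was used here.

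For adipocytes, 3 libraries in each diet group could be used. For SVCs, 3 SW libraries, 2 HFD libraries and 1 LFD library could be used, because the names of the other columns match no group label. The study treats the samples of a group as biological replicates; the sources used here do not say whether RNA of several mice was pooled in a library. Libraries held 5781902 to 23725647 counts. The adipocyte markers (Adipoq, Plin1, Cfd and 5 others) summed to 4676 to 25502 CPM (counts scaled to library size) in adipocyte libraries and to 125 to 782 CPM in SVC libraries, each fraction on its own scale, and none of the 8 was at 0 in any library. Counting error alone would make the difference between 2 libraries, measured as chi-square per degree of freedom, close to 1. It was 13.7 to 96.8 within adipocyte groups and 28.0 to 65.4 within SW SVCs. The 2 HFD SVC libraries stood at 408, and mitochondrial transcripts made up 6.34% of counts in library 1 and 33.5% in library 2. In the column names, HFD SVC library 1 and the LFD SVC library carry numbers of another series than the other libraries used. The labels do not say what these numbers mean, and their part in the SVC differences was not tested. The single LFD SVC library stood apart in its mesothelial markers, which summed to 857 CPM there and to 14.3 to 156 CPM in the other SVC libraries, and the part of this in the LFD SVC levels was not tested.

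The summed markers of several cell types moved with diet in the adipocyte fraction. All 11 macrophage markers rose with HFD and were still above the lean level in SW. Their sum was 757 to 1233 CPM in LFD, 8565 to 9931 CPM in HFD and 6301 to 9428 CPM in SW. Adgre1, which encodes the macrophage surface protein F4/80, averaged 31.3 CPM in LFD and 702 CPM in HFD. Of the 8 adipocyte markers, 5 fell with HFD and none rose, and their sum was 14647 to 25502 CPM in LFD, 4676 to 9510 CPM in HFD and 9838 to 11961 CPM in SW. The endothelial markers summed to 1828 to 2240 CPM in LFD, 782 to 1456 CPM in HFD and 1014 to 1158 CPM in SW. The part of these shifts in the levels below was not tested, and in bulk RNA fewer cells of a type and less RNA per cell cannot be told apart.

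Fabp4 and Fabp5 encode the pair of fatty acid binding proteins of the adipocyte, Fabp4 being the classical adipocyte form and Fabp5 a form made in many tissues. Reads of both genes were also counted in every SVC library. Both lie on chromosome 3 (GRCm38, GENCODE M21), Fabp5 at chr3:10012548-10016607 on the plus strand and Fabp4 at chr3:10204088-10208576 on the minus strand, 187.5 kb apart with 4 protein-coding genes between them. Their coding sequences, of 399 bases for Fabp4 and 408 for Fabp5, were 61.4% identical over the aligned bases, and their longest shared exact run was 12 bases. Reads shared with other genes, such as Fabp9 between them, were not examined. The first 90 aligned bases without a gap are printed here, because the results for the 2 genes go opposite ways and rest on their reads being told apart. They are coding bases 14 to 103 of Fabp4 and 20 to 109 of Fabp5, and capitals mark the 37 bases at which they differ.
Fabp4: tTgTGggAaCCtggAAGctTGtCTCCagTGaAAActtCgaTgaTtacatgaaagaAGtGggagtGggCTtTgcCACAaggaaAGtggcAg
Fabp5: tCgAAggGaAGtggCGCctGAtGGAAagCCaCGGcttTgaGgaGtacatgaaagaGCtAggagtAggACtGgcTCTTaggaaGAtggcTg

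Per length, Fabp4 and Lpl had the highest levels of the 10 genes in LFD adipocytes under each of 3 choices of length, and the order of some others changed with that choice. Levels were set between genes as counts per kilobase of the longest annotated transcript, scaled to the same total in every library. In LFD adipocytes Fabp4 stood highest at 10012 ± 1464 (SD, n = 3), followed by Lpl at 3902 ± 210 and Cd36 at 2033 ± 219. Dgat2 followed at 1230 ± 246 and Agpat2 at 578 ± 40.2. Fabp5 at 228 ± 23.7 and Dgat1 at 220 ± 24.4 were neighbours that did not differ beyond their spread. Slc27a1 at 113 ± 31.0, Lpin1 at 54.5 ± 8.86 and Gpam at 5.38 ± 3.48 closed the order. The longest Fabp4 transcript, of 4231 bases, is not a protein-coding one. With the longest protein-coding transcript, of 896 bases for Fabp4 and 987 for Fabp5, Fabp4 stood at 43051 ± 5986, and Fabp5 at 681 ± 75.9 stood above Agpat2. With the mean length over all transcripts, Dgat2 at 2096 ± 408 stood above Cd36 at 1879 ± 184, within their spread, and Dgat1 at 341 ± 34.4 stood above Fabp5 at 238 ± 22.9. The protein-coding choice moved the share of Fabp4 in the summed level of the 10 genes from 54.3% to 83.9%.

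High fat diet did not shift the 10 genes in 1 direction. In HFD against LFD adipocytes 2 rose (Cd36 and Fabp5), 2 fell (Fabp4 and Dgat1) and 6 did not pass the test. With 4 of 10 past the threshold of 0.05, the share stood below that of all genes, of which 51.5% of 14461 passed, 26.5% higher and 25.0% lower in HFD. The libraries of the 2 diets did not overlap for 6 of the 10, against 62.7% of all genes. The median log2 fold change was -0.28 over the 10 genes and -0.03 over all genes tested. Here and for the other comparisons, adjusted p-values come from the quasi-likelihood test of edgeR and are corrected over all genes tested by the method of Benjamini and Hochberg.

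After the switch, Fabp4 and Dgat1 rose from their HFD level and Gpam fell. That made 3 of 10 past the threshold in SW against HFD adipocytes, beside 31.4% of all genes, 15.6% higher and 15.9% lower. The libraries of SW and HFD did not overlap for 4 of the 10, against 48.6% of all genes. Against LFD, 1 of 10 passed, Fabp5, beside 17.1% of all genes, 10.9% higher and 6.18% lower. Here too 4 of the 10 did not overlap, against 36.7% of all genes. The median log2 difference of SW from LFD was -0.37 over the 10 genes and 0.00056 over all genes. These 3 comparisons share their libraries in pairs, so they are set side by side below and not counted as separate evidence.

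**Figure D1:**
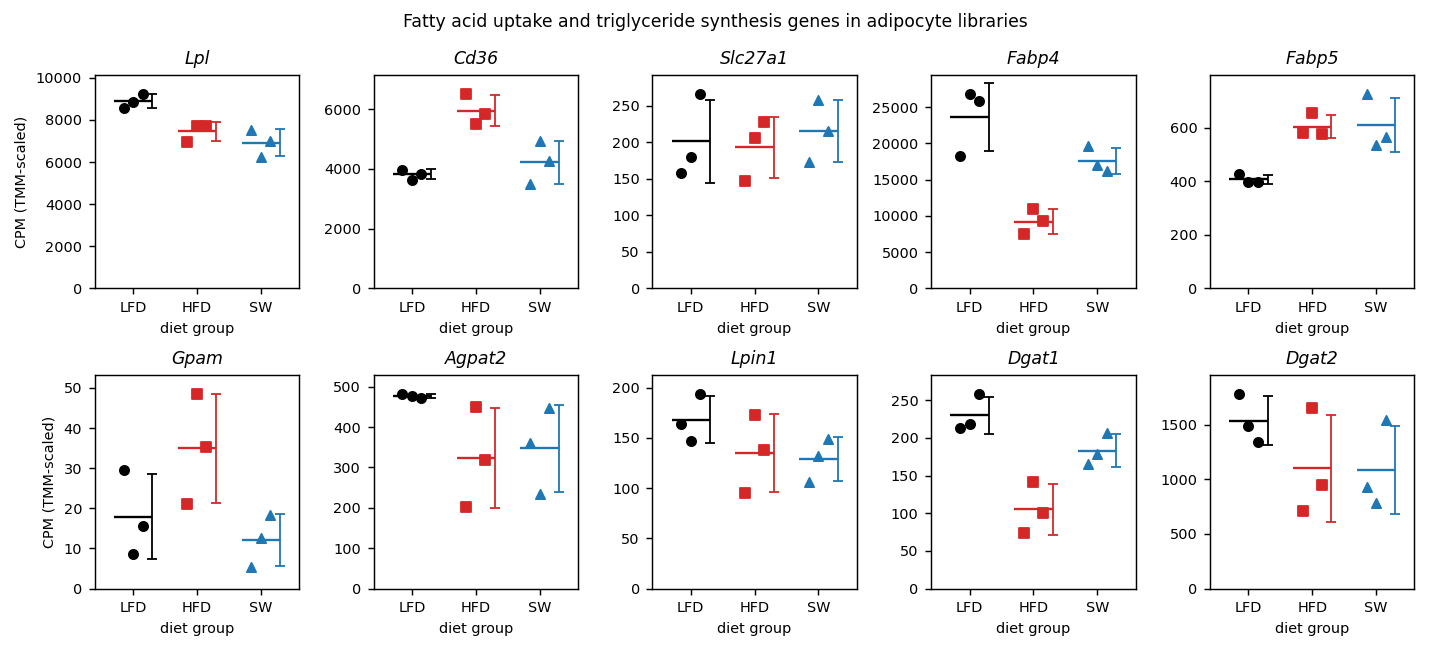
TMM-scaled CPM of each gene (vertical axes from 0) in the 9 adipocyte libraries by diet group (horizontal axes). Each point is 1 library, the line is the group mean and the bar ± 1 SD (n = 3). Fabp4 and Dgat1 dip in HFD, Cd36 peaks there, and Fabp5 is as high in SW as in HFD.

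Lpl encodes lipoprotein lipase, which is secreted and carried to the capillary wall to release fatty acids from triglyceride-rich lipoproteins (chr8:68880491-68907448, plus strand). It measured 8586, 8875 and 9237 CPM in LFD adipocytes, 6953, 7710 and 7724 CPM in HFD, and 7519, 6248 and 7004 CPM in SW. The lean libraries were the 3 highest, and the HFD and SW libraries overlapped. The log2 fold change was -0.25 ± 0.18 (SE) for HFD against LFD (adjusted p = 0.252) and -0.36 ± 0.18 for SW against LFD (adjusted p = 0.193), so neither passed. With DESeq2 both passed, at adjusted p = 0.0398 and 0.00603.

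Cd36 encodes the scavenger receptor and fatty acid translocase CD36, which adipocytes, capillary endothelium and macrophages all carry (chr5:17781690-17888801, minus strand). Its levels were 3978, 3638 and 3842 CPM in LFD, 6515, 5514 and 5851 CPM in HFD, and 3495, 4922 and 4261 CPM in SW. All 3 HFD libraries lay above every other adipocyte library, and SW overlapped LFD. Cd36 was 1.56-fold higher in HFD than in LFD (log2 fold change 0.64 ± 0.19, adjusted p = 0.0169). This call was lost without HFD library 1 (adjusted p = 0.0525) or without LFD library 2 (adjusted p = 0.0628). The SW level differed from HFD by -0.50 ± 0.19 on the log2 scale and did not pass (adjusted p = 0.0682). This difference passed with limma-voom (adjusted p = 0.0478) and DESeq2 (adjusted p = 0.0030). In the other 16 of 18 alternatives it did not pass, with adjusted p up to 0.164.

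Slc27a1 encodes FATP1, a transport protein that also activates fatty acids with coenzyme A (chr8:71568882-71587302, plus strand). It measured 159, 180 and 266 CPM in LFD, 147, 205 and 228 CPM in HFD, and 173, 258 and 216 CPM in SW. The 3 diets covered the same range. Fitted differences were -0.06 ± 0.24 for HFD against LFD and 0.16 ± 0.24 for SW against HFD on the log2 scale (adjusted p = 0.845 and 0.629).

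Fabp4 showed the largest fall of the 10 genes with HFD. Its levels were 18294, 26825 and 25832 CPM in LFD, 7450, 10929 and 9249 CPM in HFD, and 19634, 17025 and 16203 CPM in SW. The HFD libraries lay below all others, and the SW range overlapped the lower end of LFD. Fabp4 was 2.57-fold lower in HFD than in LFD (log2 fold change -1.36 ± 0.24, adjusted p = 0.00124). It rose 1.91-fold from HFD to SW (0.94 ± 0.24, adjusted p = 0.0179), and SW differed from LFD by -0.42 ± 0.24 (adjusted p = 0.253). The fall held in every alternative, with adjusted p up to 0.00816. The later rise was lost without HFD library 1 (adjusted p = 0.0668) or HFD library 3 (adjusted p = 0.0709).

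Fabp5 rose with HFD and stood at the HFD level in SW. It measured 427, 397 and 399 CPM in LFD, 580, 655 and 579 CPM in HFD, and 727, 537 and 566 CPM in SW. Every HFD and SW library lay above every LFD library, and HFD and SW overlapped. Fabp5 was 1.48-fold higher in HFD (0.57 ± 0.16, adjusted p = 0.0119) than in LFD, and SW was above LFD by 0.58 ± 0.16 on the log2 scale (adjusted p = 0.0286). SW and HFD differed by 0.01 ± 0.15 on the log2 scale (adjusted p = 0.959). The rise with HFD held with each library left out. The SW difference from LFD was lost in 5 of those fits, without HFD library 3, SW library 1 or any 1 of the LFD libraries, with adjusted p between 0.0552 and 0.0981. The macrophage markers were high in the same 6 libraries, and their part in the Fabp5 level was not tested.

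Gpam encodes the mitochondrial glycerol phosphate acyltransferase GPAT1, which adds the first acyl chain (chr19:55067268-55127238, minus strand). It was the lowest of the 10 genes, with 29.5, 8.67 and 15.7 CPM in LFD, 21.2, 48.4 and 35.3 CPM in HFD, and 5.47, 12.7 and 18.3 CPM in SW. HFD lay above SW in every library, while LFD overlapped both. Gpam fell 2.85-fold from HFD to SW (-1.51 ± 0.49, adjusted p = 0.0423). This was the least stable call, lost in 8 of 18 alternatives with adjusted p up to 0.133. The HFD difference from LFD, 1.02 ± 0.50, did not pass (adjusted p = 0.11).

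Agpat2 encodes the enzyme that adds the second acyl chain and whose loss causes a lack of fat tissue (chr2:26593057-26604417, minus strand). It measured 481, 477 and 472 CPM in LFD, 202, 449 and 319 CPM in HFD, and 361, 234 and 448 CPM in SW. The lean libraries lay close together and above all others, and the HFD and SW libraries were scattered over the same range. HFD differed from LFD by -0.56 ± 0.29 (adjusted p = 0.132), and passed only without HFD library 2 (-0.86, adjusted p = 0.0331). Agpat2 overlaps Egfl7, an endothelial gene on the opposite strand with up to 8706 counts in a library, and strandedness is not given in the sources used here, so reads of the 2 genes may be shared. Egfl7 is one of the 8 endothelial markers whose sum was highest in LFD.

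Lpin1 encodes lipin 1, the phosphatidic acid phosphatase that makes diacylglycerol (chr12:16535669-16610966, minus strand). Its levels were 163, 147 and 193 CPM in LFD, 94.8, 173 and 138 CPM in HFD, and 106, 132 and 149 CPM in SW. All 3 diets overlapped. The log2 difference was -0.31 ± 0.22 for HFD against LFD (adjusted p = 0.25) and -0.07 ± 0.22 for SW against HFD (adjusted p = 0.835).

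Dgat1 encodes one of the unrelated pair of enzymes that add the last acyl chain, and acts on fatty acids taken up from outside as well as on those released within the cell (chr15:76502015-76511953, minus strand). It measured 213, 219 and 258 CPM in LFD, 74.1, 141 and 101 CPM in HFD, and 165, 178 and 207 CPM in SW. The 3 diets did not overlap, with SW between HFD and LFD. Dgat1 was 2.18-fold lower in HFD than in LFD (-1.13 ± 0.21, adjusted p = 0.0018) and rose 1.74-fold from HFD to SW (0.80 ± 0.21, adjusted p = 0.0207). SW differed from LFD by -0.33 ± 0.21 (adjusted p = 0.322). The fall held in every alternative, with adjusted p up to 0.00973. The rise was lost without HFD library 1, HFD library 3 or SW library 3, at adjusted p = 0.0569, 0.0762 and 0.0604.

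Dgat2 encodes the other enzyme of the last step, tied mainly to newly made fatty acids (chr7:99153658-99182719, minus strand). Its levels were 1777, 1486 and 1341 CPM in LFD, 711, 1649 and 944 CPM in HFD, and 928, 782 and 1541 CPM in SW. HFD and SW were spread widely and overlapped LFD. The log2 difference of HFD from LFD was -0.48 ± 0.33 (adjusted p = 0.254), and it passed without HFD library 2 (-0.87, adjusted p = 0.0396). HFD library 1 was the lowest and HFD library 2 the highest of the HFD group for each of Agpat2, Lpin1, Dgat1, Dgat2 and Fabp4, and also for Gpam.

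**Figure D2:**
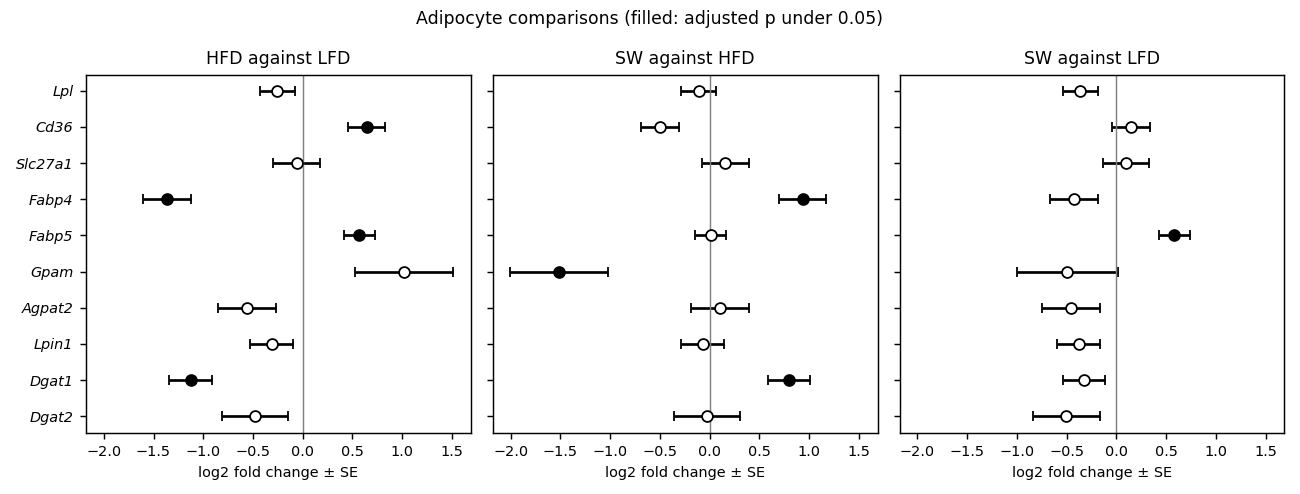
Fitted log2 fold change ± SE (horizontal axes) of each gene in the 3 adipocyte comparisons; filled points have an adjusted p under 0.05. Fabp4 and Dgat1 lie left of 0 in HFD against LFD and right of 0 in SW against HFD, and Fabp5 is the only filled point in SW against LFD.

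Ratios of 2 genes within a library do not depend on the scaling to library size. For each copy of Fabp5 counted, there were 42.8, 67.5 and 64.8 counts of Fabp4 in the LFD adipocyte libraries, 12.8, 16.7 and 16.0 in HFD, and 27.0, 31.7 and 28.6 in SW. The 3 diets did not overlap, and SW lay between the others. The mean log2 ratio of Fabp5 to Fabp4 was 1.92 higher in HFD than in LFD, 0.95 lower in SW than in HFD (a difference of -0.95) and 0.98 higher in SW than in LFD. A two-sided exact permutation test gave p = 0.1 for each, the smallest that 3 against 3 libraries allow, and 0.129 after adjustment over the 9 ratio comparisons made.

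The final enzymes were also compared within libraries. Counts of Dgat2 per count of Dgat1 were 8.33, 6.79 and 5.20 in LFD, 9.59, 11.7 and 9.37 in HFD, and 5.63, 4.39 and 7.46 in SW. HFD lay above the other diets, and SW and LFD overlapped. The mean log2 ratio was 0.61 higher in HFD than in LFD and differed by -0.84 between SW and HFD (exact permutation p = 0.1 each, adjusted p = 0.129). SW and LFD differed by -0.23 (exact permutation p = 0.5).

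Of the uptake pair, Cd36 outnumbered Slc27a1 by 25.1, 20.2 and 14.4 counts to 1 in LFD, 44.4, 26.8 and 25.7 in HFD, and 20.2, 19.1 and 19.8 in SW. HFD was the highest group with no overlap, and its gap to the nearest LFD library was small. The log2 ratio of Slc27a1 to Cd36 differed by -0.69 between HFD and LFD and by 0.67 between SW and HFD (exact permutation p = 0.1 each), and by -0.02 between SW and LFD (exact permutation p = 1).

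**Figure D3:**
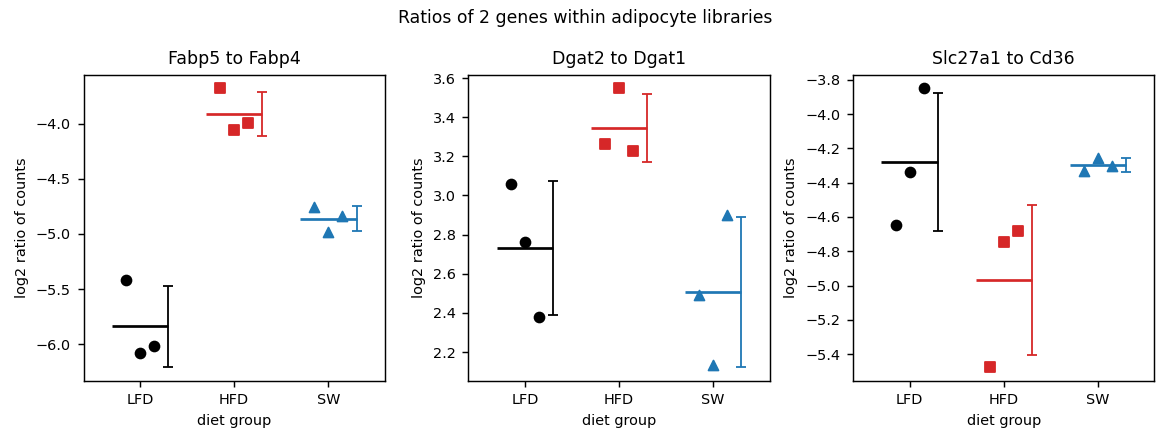
Log2 ratio of the counts of 2 genes within each adipocyte library (vertical axes) by diet group (horizontal axes); lines are means and bars ± 1 SD (n = 3). The 3 diets separate for Fabp5 to Fabp4, whereas SW overlaps LFD for the other ratios.

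Other genes of the same pathway moved in both directions as well. On the list of further uptake and activation genes (13 genes, 12 tested in adipocytes), 2 rose and 4 fell with HFD. On the list of further glycerolipid synthesis genes (19 genes, 18 tested), 3 rose and 9 fell. Over all genes 51.5% passed, 26.5% higher and 25.0% lower, so the count of the uptake list was close to the background. The medians were 0.09 and -0.45 on the log2 scale, beside -0.03 over all genes.

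On these lists, the largest falls with HFD were those of Mogat1, Pck1, Gpihbp1 and Gpat3. Mogat1, a monoacylglycerol acyltransferase, averaged 30.1 CPM in LFD and 4.95 CPM in HFD (log2 fold change -2.57 ± 0.27, adjusted p = 5.3e-05). Pck1, whose product PEPCK makes the glycerol backbone in fat, averaged 791 and 200 CPM (-1.98 ± 0.48, adjusted p = 0.00617). Gpihbp1, the endothelial protein that anchors lipoprotein lipase in the capillary, averaged 537 and 162 CPM (-1.73 ± 0.21, adjusted p = 0.00013). Its fall went with that of the endothelial markers, of which 6 of 8 fell, and their part in it was not tested. Gpat3, the microsomal acyltransferase of the first step in fat, averaged 128 and 40.0 CPM (-1.67 ± 0.21, adjusted p = 0.00017).

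The largest rises with HFD were in Gk, glycerol kinase, from 9.31 to 25.5 CPM (1.47 ± 0.15, adjusted p = 3.9e-05), and in Lpin2, a second lipin, from 10.5 to 21.1 CPM (1.00 ± 0.14, adjusted p = 0.00036). Agpat4, an acyltransferase of the second step, rose by 0.60 (adjusted p = 0.0118), and the acyl-CoA synthetase gene Acsl4 rose by 0.58 (adjusted p = 0.00175), both as log2 fold changes. Gpam and Gpat3, which serve the first acylation, thus stood on opposite sides of 0, at 1.02 and -1.67, though only Gpat3 passed.

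After the switch, 1 uptake gene rose and 2 fell against HFD, and 5 synthesis genes rose and 2 fell, of 12 and 18 tested, beside 15.6% of all genes higher and 15.9% lower. Mogat1 rose by 1.24, Gpihbp1 by 1.18, Gpat3 by 1.02 and Bscl2, which encodes the droplet assembly protein seipin, by 0.69 as log2 fold changes (adjusted p = 0.0101, 0.0058, 0.00905 and 0.0492). Gk fell by 1.06, Acsl3 by 0.78, Lpin2 by 0.68 and Acsl4 by 0.33 (adjusted p = 0.00313, 0.00929, 0.00921 and 0.0432). Against LFD, 1 uptake gene and 4 synthesis genes were lower in SW and 1 synthesis gene was higher, beside 6.18% of all genes lower and 10.9% higher. Mogat1 was still lower by -1.33, Lpin3 by -0.98, the glycerol channel gene Aqp7 by -0.63 and Acsl3 by -0.59, while Agpat4 was higher by 0.78 (adjusted p = 0.00573, 0.0126, 0.00999, 0.0356 and 0.00944). Gpat2, an acyltransferase known from testis, had 0 counts in all 3 SW adipocyte libraries and at most 4 in any other adipocyte library, so it was not tested.

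In SVCs, Cd36, Lpl and Fabp4, which serve uptake and carriage of fatty acids, fell from HFD to SW. The other 7 genes did not pass, although Dgat1 and Dgat2 were higher in every SW library than in the HFD libraries. All 3 calls were lost with a correction for GC content, where the log2 changes were -0.75 to -0.76 (adjusted p from 0.16 to 0.234). They were also lost without any 1 of the SW libraries. The 3 of 10 compare with 17.5% of 16319 genes past the threshold, with 11.7% lower and 5.71% higher in SW. The groups did not overlap for 6 of the 10, against 58.6% of all genes.

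Cd36 measured 2669 and 1403 CPM in the HFD SVC libraries, 484, 277 and 291 CPM in SW, and 205 CPM in the single LFD library. Every SW library lay below both HFD libraries and above the LFD library. Cd36 was 5.80-fold lower in SW than in HFD (log2 fold change -2.54 ± 0.41, adjusted p = 0.0362).

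Lpl measured 3656 and 1565 CPM in HFD, 787, 713 and 539 CPM in SW, and 258 CPM in LFD. The order of the diets was that of Cd36. Lpl was 3.84-fold lower in SW than in HFD (-1.94 ± 0.42, adjusted p = 0.0394).

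Fabp4 measured 1059 and 529 CPM in HFD, 165, 141 and 254 CPM in SW, and 185 CPM in LFD. The LFD library lay within the SW range. Fabp4 was 4.24-fold lower in SW than in HFD (-2.08 ± 0.40, adjusted p = 0.0373), which is the opposite direction to adipocytes.

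Fabp5 in SVCs measured 319 and 260 CPM in HFD, 193, 246 and 257 CPM in SW, and 42.6 CPM in the single LFD library. Both HFD libraries lay above every SW library, unlike in adipocytes, and every SW library lay above the LFD library. The SW mean was 5.44 times the value of the LFD library, a description with no test since LFD has 1 library. SW and HFD differed by -0.32 ± 0.24 on the log2 scale (adjusted p = 0.327). Slc27a1 was also lowest in the LFD library, with 173 and 162 CPM in HFD, 161, 149 and 193 CPM in SW, and 66.0 CPM in LFD. Its SW and HFD levels overlapped and differed by 0.00 ± 0.21 (adjusted p = 0.996). With the correction for GC content the difference was -0.71 (edgeR adjusted p = 0.132).

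Of the synthesis genes in SVCs, Dgat1 measured 23.9 and 21.7 CPM in HFD, 36.4, 35.9 and 39.3 CPM in SW, and 50.5 CPM in LFD. Dgat2 measured 12.8 and 30.4 CPM in HFD, 46.7, 44.0 and 52.9 CPM in SW, and 97.1 CPM in LFD. Both were lowest in HFD and highest in the LFD library. The SW difference from HFD was 0.71 ± 0.20 for Dgat1 (adjusted p = 0.0554) and 1.15 ± 0.38 for Dgat2 (adjusted p = 0.0761). Agpat2 ranged from 17.7 to 53.7 CPM in HFD and from 52.8 to 68.3 CPM in SW, Lpin1 from 21.7 to 27.1 and from 19.8 to 42.7 CPM, and Gpam from 4.21 to 4.35 and from 2.74 to 6.99 CPM. These 3 overlapped between the diets.

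**Figure D4:**
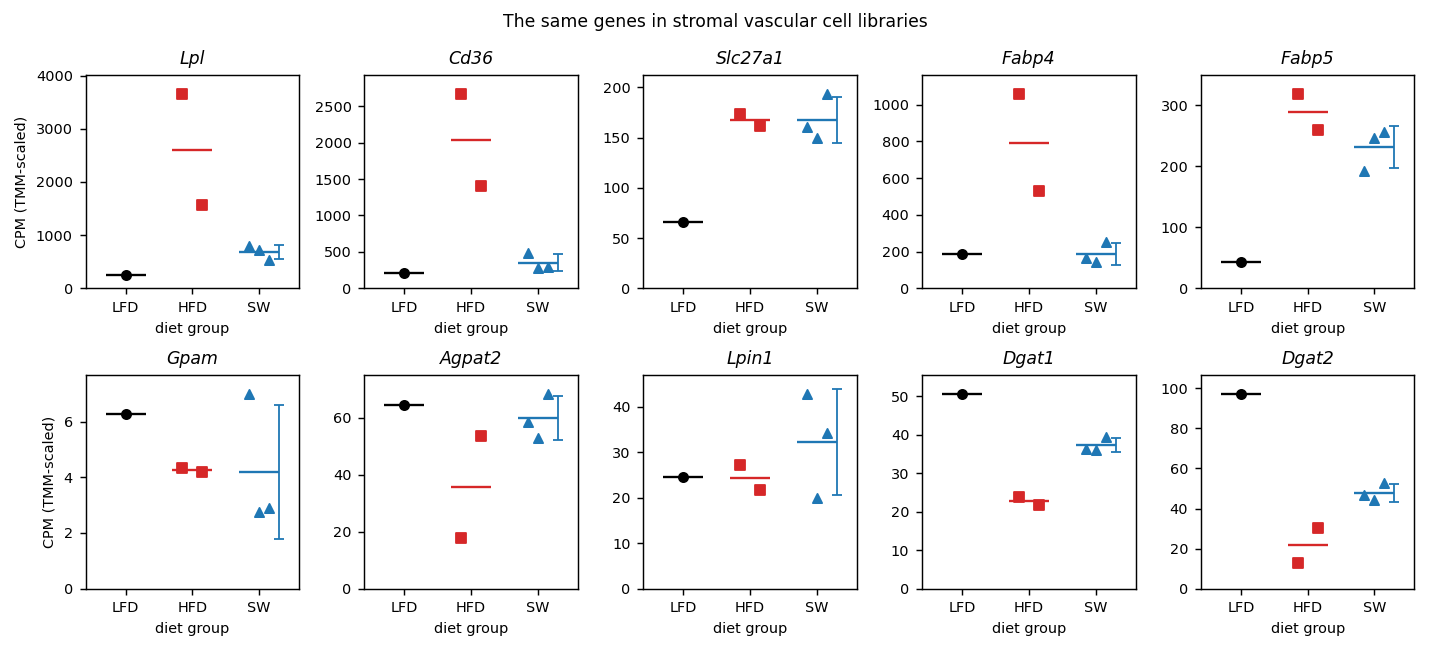
TMM-scaled CPM of each gene (vertical axes from 0) in the 6 SVC libraries by diet group (horizontal axes). Each point is 1 library, lines are means, and bars (± 1 SD) are drawn for SW only, which has 3 libraries. Cd36, Lpl and Fabp4 are high in both HFD libraries, and Fabp5 and Slc27a1 are low in the LFD library alone.

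Marker sums also varied among the SVC libraries. The adipocyte markers summed to 125 and 309 CPM in the HFD SVC libraries, 335 to 534 CPM in SW and 782 CPM in LFD. The macrophage markers summed to 10592 to 19675 CPM in HFD, 14078 to 20459 CPM in SW and 8591 CPM in LFD. The part of either cell type in the SVC levels of Cd36, Lpl and Fabp4 was not tested.

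The base composition of the transcripts moved with the SVC result. Cd36, Fabp4 and Lpl have the lowest GC content of the 10 longest transcripts, at 38.4%, 42.7% and 43.5%, and Dgat2, Dgat1, Slc27a1 and Agpat2 the highest, at 56.3% to 58.0%. For Fabp4, Fabp5 and Slc27a1 the longest transcript is not a protein-coding one. For Fabp4 it has 4231 bases, and the longest protein-coding one 896. The GC-corrected values of these genes rest on that choice, and GC content of the protein-coding transcripts was not used. Over all genes tested in SVCs, the median log2 change from HFD to SW was -1.43 for the 3947 genes under 45% GC, 0.09 for the 8517 genes from 45 to 55% and 0.70 for the 3685 genes over 55%. With a correction for GC content, Cd36 changed by -0.75, Fabp4 by -0.76 and Lpl by -0.76, with adjusted p = 0.162, 0.234 and 0.16, and 0 of the 10 genes passed in edgeR. Over all genes 0 then passed, and 4554 had an unadjusted p under 0.05. The corresponding medians for HFD against LFD adipocytes were 0.14, -0.03 and -0.24, and there the calls of Cd36, Fabp4, Fabp5 and Dgat1 held with the correction (adjusted p = 0.0376, 0.00107, 0.0128 and 0.00422).

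The SVC calls also depended on single libraries. None of the 10 genes passed without any 1 of the SW libraries. Over all genes, edgeR called 593 without SW library 2, and 0 without SW library 1 or SW library 3, beside 2849 with all libraries. At an unadjusted p under 0.05 there were 5435 genes without SW library 1 and 4217 without SW library 3. Leaving out an HFD library leaves 1 in that group, so only the size of the change is given. Without HFD library 1, Cd36 changed by -1.93, Lpl by -1.13 and Fabp4 by -1.43. The log2 changes of all 3 were below 0 in each of these fits.

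**Figure D5:**
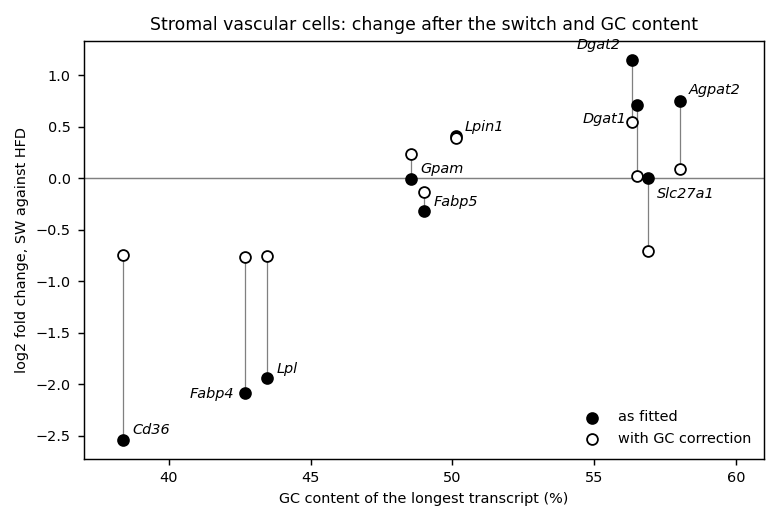
Log2 fold change of each gene from HFD to SW in SVCs (vertical axis) against the GC content of its longest transcript (horizontal axis, %), as fitted (filled) and with a GC correction (open), joined by a line for each gene. Cd36, Fabp4 and Lpl lie at the lower left and move to about -0.75 with the correction.

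Between the fractions, most of the 10 genes were higher in the adipocyte fraction. On 1 scale for both fractions, 8 of 10 were higher in SW adipocytes than in SW SVCs and none lower, where 68.4% of 17441 genes passed the test, 32.8% higher and 35.6% lower. In HFD, 9 of 10 were higher in adipocytes and none lower, where 29.1% of genes passed, 12.9% higher and 16.2% lower. The libraries of the fractions did not overlap for 8 of 10 genes in SW and 9 of 10 in HFD, against 70.8% and 51.5% of all genes. The median log2 difference of the 10 genes was 1.9998 in SW and 2.03 in HFD, beside -0.09 and -0.08 over all genes.

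In SW, Fabp4 averaged 15750 CPM in adipocytes and 223 CPM in SVCs (log2 difference 6.14 ± 0.38, adjusted p = 1.2e-07). Dgat2 averaged 970 and 57.3 CPM (4.08 ± 0.42, adjusted p = 2.6e-06), Cd36 3779 and 421 CPM (3.16 ± 0.29, adjusted p = 1.1e-06), and Lpl 6190 and 816 CPM (2.92 ± 0.29, adjusted p = 1.7e-06). Agpat2, Dgat1, Lpin1 and Fabp5 differed by 2.12, 1.88, 1.57 and 0.98 and also passed. Fabp5 had the smallest difference of the 8. Gpam differed by 1.05 ± 0.53 (adjusted p = 0.0899) and Slc27a1 by -0.06 ± 0.23 (adjusted p = 0.84).

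In HFD the largest difference was that of Dgat2, which averaged 996 CPM in adipocytes and 24.8 CPM in SVCs (5.33 ± 0.54, adjusted p = 3.3e-05). Fabp4 differed by 3.25, Agpat2 by 2.83, Gpam by 2.72, Lpin1 by 2.16 and Dgat1 by 1.90, while Cd36, Lpl and Fabp5 differed by 1.26, 1.23 and 0.76 (adjusted p = 0.0101, 0.0103 and 0.0103). Those last 3 no longer passed when only the HFD libraries of both fractions were fitted (adjusted p = 0.0645, 0.0885 and 0.0752), which left 6 of 10. Without SVC HFD library 2, which leaves 1 HFD SVC library, these 3 differed by 0.93, 0.80 and 0.69. Slc27a1 did not differ beyond its error (-0.10 ± 0.26, adjusted p = 0.791). GC content moved with the fraction too, with medians of 1.54 for genes under 45% GC and -1.26 for genes over 55% in SW. With the GC correction Slc27a1 was higher in SW adipocytes by 1.04 (adjusted p = 0.00248), and the 8 genes that had passed in SW still did.

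For 3 genes the response to the switch was not the same in adipocytes as in SVCs. The adipocyte change minus the SVC change was 2.89 ± 0.45 for Fabp4 (adjusted p = 0.00154), 1.91 ± 0.40 for Cd36 (adjusted p = 0.00494) and 1.69 ± 0.40 for Lpl (adjusted p = 0.00802) on the log2 scale, and 27.1% of all genes passed this test. For Fabp4 the fractions moved in opposite directions. With the GC correction Fabp4 remained past the threshold (1.88, adjusted p = 0.0252), and Cd36 (0.52, adjusted p = 0.311) and Lpl (0.82, adjusted p = 0.116) did not. The difference was 0.22 ± 0.25 for Fabp5 and -0.02 ± 0.30 for Dgat1 (adjusted p = 0.552 and 0.99).

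Promoter sequence, given as a description, was at hand for 5 of the 10 genes (Cd36, Slc27a1, Gpam, Agpat2 and Lpin1, with 8 windows in all), from RefSeq on GRCm38.p6. On either strand, the DR1 element, the direct repeat bound by PPARγ with RXR, was in none of the 8 and in 0.0396% of 32851 windows of the same length. The C/EBP element TTGCNNAA was in 1 of the 8, that of Gpam at bases 9 to 16 from the start, and in 10.8% of all windows. The SREBP element TCACNCCAC was in none of the 8 and in 1.24% of all windows.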

How the data were processed

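The authors deposited 1 table for adipocytes and 1 for SVCs, holding expected counts per gene that were whole numbers. Reads had been aligned to mouse transcripts with Bowtie2 and counted per gene with RSEM, and limma was the study's test. The submitters' processing notes name the build mm9. Versions and strandedness are not given in the sources used here. Of 18 labelled libraries (26 label records, since 8 libraries had 2 runs), 15 columns could be tied to a group. Another 3 columns of values were not used. Libraries are numbered in column order, as names only.

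Genes were filtered with filterByExpr (minimum count 10), scaled by TMM and tested with edgeR 4.0.16 (robust quasi-likelihood) in R 4.3.3, with 1 fit for each fraction and 1 for both, and a threshold of 0.05 on adjusted p-values. The scaling values (TMM) and CPM were computed here. LFD SVCs entered the fit but no test. Alternatives were RLE and upper-quartile factors, DESeq2 1.42.0, limma-voom (limma 3.58.1), other filters, removal of mitochondrial and hemoglobin genes, a GC correction by a loess offset, only the groups compared, and each library left out. The test was run on simulated counts with few changed genes and no GC or single-library effects. That run checks the computation and not the calls given here. Ratios were tested by two-sided exact permutation (scipy 1.17.1).

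Positions, lengths and GC content are from GENCODE M21 (GRCm38), another build than the one named for the counts, matched by Ensembl identifier for 37607 of 39017 genes. Some genes appear in the tables under older symbols (Gk as Gyk, Gpat3 as Agpat9, Gpat4 as Agpat6, Adgre1 as Emr1). The 10 genes, the pathway lists and the marker lists were chosen with earlier results of these data known. All 10 genes are named in each comparison, and of other pathway genes up to 4 largest rises and 4 largest falls past the threshold and any at 0 in a diet group. The fibroblast, mesothelial, and T and B cell marker lists are given in the closing section.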

Additional observations from a re-analysis of the deposited data

Results flagged for a closer look

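Lpl, Cd36 and Fabp4 are listed here because their change after the switch differed between the fractions when that difference was itself tested. The change from HFD to SW, taken as adipocyte minus SVC on the log2 scale, was 1.69 for Lpl, 1.91 for Cd36 and 2.89 for Fabp4, each past the threshold in the interaction test of edgeR (adjusted p = 0.00802, 0.00494 and 0.00154). In adipocytes the HFD and SW libraries of Lpl overlapped. The SVC side of each difference rests on 2 HFD libraries. Over all genes, 27.1% passed the interaction test. With the GC correction Fabp4 still passed it in edgeR (adjusted p = 0.0252), and Cd36 and Lpl did not (adjusted p = 0.311 and 0.116).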

How the results depend on the processing

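Over the 10 genes and 7 comparisons, 1410 values were recomputed under alternatives. Of these, 1350 kept their direction and side of the threshold, or had passed in neither fit, 43 lost the threshold, 16 gained it and 1 changed sign with a call, Slc27a1 in SW adipocytes against SVCs with the GC correction (1.04). DESeq2 gave 2 genes (Fabp5 and Lpl) in place of 1 in SW against LFD adipocytes, and 5 in place of 3 in SVCs. Over all genes, DESeq2 called 3056 of 14461 in SW against LFD adipocytes, in place of 2468. The GC correction gave 0 in place of 3 in SVCs and 1 in place of 3 for the difference between fractions. With single libraries left out, the number of genes past the threshold was 3 to 6 for HFD against LFD, 0 to 3 for SW against HFD (0 without HFD library 1 or 3) and 0 to 1 for SW against LFD (0 without HFD library 3, SW library 1 or any LFD library). Fits that leave 1 HFD SVC library are not counted here. In the others the number was 0 to 3 in SVCs, 8 to 9 and 9 for the fractions in SW and HFD, and 3 for the difference between fractions. For other pathway genes in the 3 adipocyte comparisons it was 14 to 19, 7 to 11 and 3 to 7 (3 without LFD library 2). Calls over all genes fell too. Without adipocyte HFD library 1, 6492 of 14931 passed for HFD against LFD and 2299 for SW against HFD. With all libraries these were 7448 and 4546 of 14461. The causes were not tested.

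The log2 ratio of Slc27a1 to Cd36 in SW against LFD was -0.02 and became 0.031 by medians and ranged from -0.20 to 0.20 (0.195 without LFD library 3) with single libraries left out. No paired analysis was possible because the columns carry none of the replicate numbers of the labels, and for the same reason paired-end and single-end runs cannot be told apart. Fabp4 made up 83.9% of the summed level with the longest protein-coding transcripts, an alternative chosen after seeing the data.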

Other observations

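In SVCs, other genes of the pathway moved in both directions. From HFD to SW, 1 of 13 uptake and activation genes rose and 2 fell, and 3 of 18 tested synthesis genes rose and 2 fell, beside 5.71% of all genes higher and 11.7% lower. Acsl3 fell by 2.51, Acsl4 by 2.08, Gk by 2.01 and Agpat5 by 1.22 on the log2 scale (edgeR adjusted p = 0.0381, 0.0368, 0.0381 and 0.0381). Lpin3, Lmf1 (needed for the maturation of lipoprotein lipase) and Gpat4 rose, by 1.24, 1.20 and 1.06 (adjusted p = 0.0395, 0.046 and 0.0395). Gpat2 had 2 counts in each HFD SVC library and 107, 6 and 38 in SW. The GC content of all genes moved with this comparison, as given in the report.

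Between the fractions in SW, 7 of 13 uptake and activation genes were higher in adipocytes and 3 lower, and 8 of 19 synthesis genes were higher and 8 lower, beside 32.8% of all genes higher and 35.6% lower. Pck1 was higher by 5.65, Angptl8 by 4.82, Gpat3 by 4.73 and Acsl1 by 4.31 on the log2 scale. Lpin3 differed by -1.80, Lmf1 by -1.75 and Slc27a4 by -1.57, and Gpat2 had no counts in SW adipocytes. In HFD, 4 of 13 uptake genes were higher and 3 lower, and 9 of 19 synthesis genes were higher and 1 lower, beside 12.9% and 16.2% of all genes. Mogat2, with 0 and 5 counts in the HFD SVC libraries, was higher in adipocytes by 5.11, Pck1 by 4.61, Acsl1 by 4.52 and Gpat3 by 4.18. Slc27a2 differed by -3.98, Slc27a3 by -0.91, Agpat4 by -0.82 and Lmf1 by -0.78.

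The remaining marker lists in HFD against LFD adipocytes gave 3 of 7 fibroblast and progenitor genes higher and 1 lower, 0 of 5 mesothelial genes higher and 4 lower, and 0 of 6 tested T and B cell genes in either direction. Their sums were 2464 to 3452 CPM in LFD and 5799 to 7713 CPM in HFD for the first, 65.3 to 123 and 7.85 to 29.2 CPM for the second, and 7.61 to 22.1 and 8.35 to 13.1 CPM for the third. In SW against HFD adipocytes, 3 of 6 tested T and B cell genes were higher (median log2 change 1.66), 1 of 7 fibroblast and progenitor genes was higher and 2 lower, and 0 of 5 mesothelial genes passed in either direction. In SW against LFD, 1 of 7 fibroblast and progenitor genes was higher, 3 of 5 mesothelial genes were lower, and 0 of 6 T and B cell genes passed. In SVCs from HFD to SW, 1 of 7 fibroblast and progenitor genes was higher and no mesothelial or T and B cell gene passed.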
